A study of Mus musculus with 12 samples.

Results

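The tumour suppressor p53, its family members, its inhibitors and its transcriptional targets were followed in EMRK1184luc cells, a luciferase-expressing lymphoma line of B cells that was derived from a female Eµ-Myc mouse, in which an immunoglobulin heavy chain enhancer drives a Myc transgene. The members are 33 named mouse genes, chosen by symbol and without p21 and the BCL-2 family; all 33 were found among the 26305 identified genes of the count table, and 25 had enough reads to be tested. Messenger RNA was counted in 12 libraries in 4 groups of 3: cells treated for 3 days with 5 µM WM-1119, which blocks the related histone acetyltransferases KAT6A and KAT6B, their DMSO vehicle controls at 3 days, cells treated with WM-1119 for 6 days, and their DMSO controls at 6 days. All groups are cultures of 1 line and carry the transgene and the luciferase construct. The sources used here do not give the p53 genotype of the line. The design text calls the replicates biological without naming cultures or days, so the p-values cover the spread among these libraries, which may be technical. In bulk RNA, fewer cells of a type and less RNA per cell cannot be told apart.

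p53 is a transcription factor that is kept low by the ubiquitin ligase MDM2 and its partner MDM4, and that accumulates when DNA is damaged, ribosomes are disturbed or an oncogene such as Myc is overactive. Its targets stop the cell cycle, repair DNA, restrain growth signalling or start cell death, and some of them, such as Mdm2 and Ppm1d, feed back on p53. In Eµ-Myc mice the ARF product of Cdkn2a links Myc to p53 by binding MDM2, and lymphomas in these mice often lose part of this pathway. Much of the control of p53 acts on the protein, which messenger RNA counts do not measure.

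Library totals were 14736267 to 28228807 counts with WM-1119 and 17928095 to 41749357 with DMSO. The 10 B lineage markers summed to 5643 to 5921 CPM (counts scaled by library total and TMM factor) in the WM-1119 libraries and to 5243 to 5490 CPM in the DMSO libraries, so that every WM-1119 library lay above every DMSO library. The 8 T cell markers summed to 4.92 to 6.88 CPM, mostly Zap70 and Lck. Trac had 45 counts and Cd3g 1 count in all, and Cd3d, Cd3e, Cd4 and Cd8a were at 0. The 8 myeloid markers, mostly Itgam, summed to 109 to 115 CPM with WM-1119 and 116 to 123 CPM with DMSO at 3 days, and to 125 to 130 CPM with WM-1119 and 116 to 118 CPM with DMSO at 6 days. Of these, Csf1r, at 0.569 to 4.97 CPM over the 12 libraries, rose by 2.14 and 2.25 on the log2 scale at 3 and 6 days. Itgam had -0.14 at 3 days, called lower, and 0.10 at 6 days, not called. Cd68 had 0.12 and -0.05 and was not called at either time. Lyz2, Adgre1 and Mpo had 12, 3 and 4 counts in all, and S100a8 and S100a9 were at 0. Transcripts of fibroblasts were uneven. The 10 fibroblast markers summed to 21.9, 39.6 and 0.953 CPM in replicates 1, 2 and 3 with WM-1119 at 6 days and to 17.6, 8.42 and 1.63 CPM with DMSO at 6 days, against 1.93 to 5.41 CPM in the libraries of 3 days. Over 1 CPM of the collagen gene Col1a1 was found in 5 libraries: WM-1119 replicate 2 of 3 days, and replicates 1 and 2 of both groups of 6 days. They are named below as the 5 libraries with fibroblast transcripts, although Col1a1 was counted in all 12 libraries. DMSO replicate 1 of 3 days lay just under the limit, at 0.975 CPM. Results are also given without these 5 where a call changes, which leaves replicate 3 alone in each group of 6 days, and the part of the marker transcripts in the results was not tested. Over all 11997 genes tested, 24.4% passed the test at 3 days and 30.8% at 6 days (edgeR quasi-likelihood test, adjusted p below 0.05), with median log2 fold changes of 0.002 and -0.004.

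The promoter sequences of 3 members are shown because each holds a match to the p53 half-site consensus and their transcripts moved differently: Sesn1 fell at both times, Ccng1 rose at 6 days, and Mdm2 was not called. The consensus is a palindrome of purines, C, A or T, A or T, G and pyrimidines, 10 letters long, so both strands are searched at once. Windows of 250 bases before to 50 after annotated starts (RefSeq, GRCm38.p6) were available for 25 members, and 9 of these (36%) held a match in at least 1 window: Trp53, Mdm2, Ppm1d, Ccng1, Sesn1, Ddit4l, Aen, Ei24 and Polk. Of all 27025 genes with such a window 9.55% held one. Paired matches with a spacer of at most 13 bases were found in 0 of the 25 members and in 0.0740% of all genes. The stretches run 5′ to 3′ on the strand of the gene from 250 to 101 bases before the start, with the match in capitals. Some genes have several annotated starts, and the 25 members had 32 windows. For Sesn1 the match precedes an internal start, inside the gene and downstream of its outermost start, whose window held none. The stretches lie at chr10:41887189-41887338 (plus strand) for Sesn1, chr11:40755387-40755536 (minus strand) for Ccng1 and chr10:117710859-117711008 (minus strand) for Mdm2.
Sesn1: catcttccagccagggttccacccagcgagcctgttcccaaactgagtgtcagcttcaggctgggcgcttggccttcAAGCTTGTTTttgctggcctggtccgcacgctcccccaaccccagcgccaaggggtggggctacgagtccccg
Ccng1: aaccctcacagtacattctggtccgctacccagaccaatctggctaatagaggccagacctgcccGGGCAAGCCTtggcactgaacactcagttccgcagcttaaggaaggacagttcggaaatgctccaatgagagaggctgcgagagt
Mdm2: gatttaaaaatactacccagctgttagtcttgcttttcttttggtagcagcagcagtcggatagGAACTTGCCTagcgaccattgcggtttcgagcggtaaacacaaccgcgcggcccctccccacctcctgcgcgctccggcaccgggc
Of the 7 members with a window that were called at either time, only Sesn1 and Ccng1 held a match in it, and Sesn2, Ephx1, Btg2, Plk3 and Apaf1 held none. A match describes letters in the window and is not evidence of binding.

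Of the p53 family, only Trp53 itself was expressed at a level that could be tested. Averaged over the 12 libraries its level per length was 133 RPKM (CPM per kilobase of the gene length in the table), the highest of the members. The relatives Trp63 and Trp73, which act mostly in epithelial and neural development, had 1 count each over all 12 libraries. That of Trp63 was in WM-1119 at 3 days and that of Trp73 in DMSO at 6 days. For a gene with 0 counts in a group, levels of up to 0.0459 CPM with WM-1119 and 0.0496 CPM with DMSO remain possible at 3 days. At 6 days the limits are 0.0613 CPM with WM-1119 and 0.0334 CPM with DMSO (a floor of 3 counts over the group, counting error only).

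**Figure D1:**
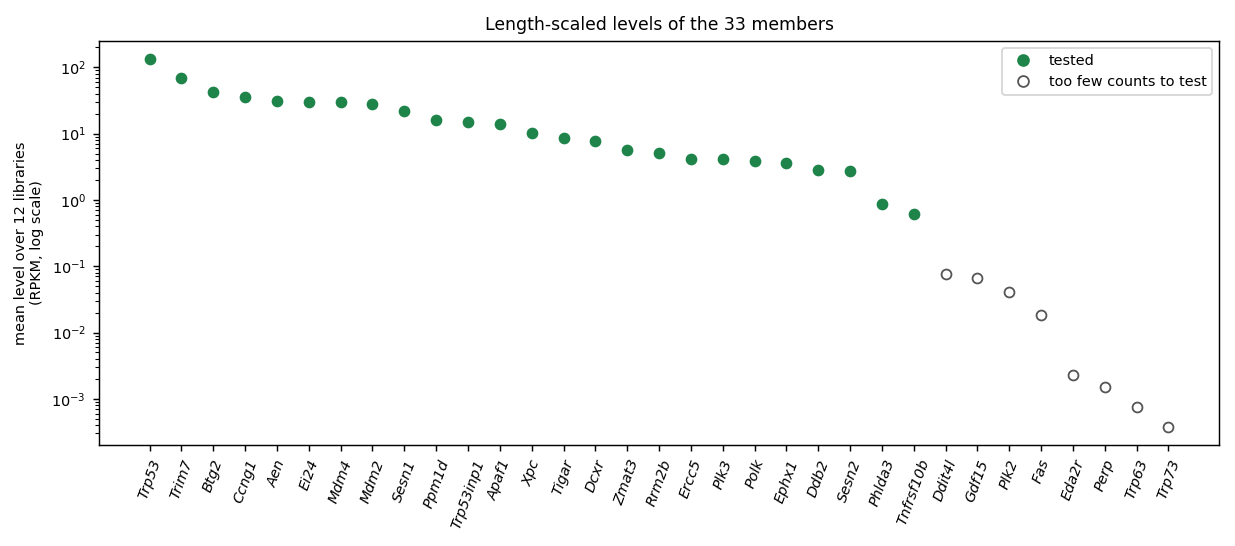
Mean level of each of the 33 members over the 12 libraries in RPKM on a log axis, in falling order; filled points were tested and open points had too few counts. Trp53 stands at 133 RPKM, and the 8 open points lie between 0.000382 and 0.0754 RPKM.

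Trp53 (chromosome 11, 69580348 to 69591873, mm10) had 258, 253 and 271 CPM with WM-1119 at 3 days, against 234, 233 and 249 CPM with DMSO. The WM-1119 libraries all lay above the DMSO libraries, but the difference was 1.09-fold and just missed the threshold (log2 fold change 0.13 ± 0.05, SE; edgeR adjusted p = 0.0534). It passed under 8 of 22 alternatives, among them upper-quartile scaling (adjusted p = 0.0185), and ranged from 0.0185 to 0.227. At 6 days Trp53 had 242, 257 and 264 CPM with WM-1119 and 231, 245 and 246 CPM with DMSO. The groups overlapped there, and the test was not passed (0.08 ± 0.05, adjusted p = 0.217). The mouse genome also holds a processed Trp53 pseudogene, and the sources used here do not say how multiply mapped reads were treated.

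None of the 3 inhibitors of p53 (Mdm2, Mdm4, Ppm1d) was called at 3 or 6 days, 0 of 3 tested. Of all genes 24.4% and 30.8% were called, shares at which 0 of 3 is no result about the inhibitors. Mdm2, which encodes the ubiquitin ligase of p53 and is also its target (chromosome 10, 117688875 to 117710758), had 90.4, 83.6 and 86.0 CPM with WM-1119 at 3 days and 82.4, 84.4 and 86.0 CPM with DMSO. Its levels at 6 days were 84.3, 86.9 and 92.9 CPM with WM-1119 and 79.1, 79.1 and 84.4 CPM with DMSO. The groups overlapped at both times, with log2 fold changes of 0.04 (2 SE interval -0.06 to 0.14) and 0.12 (0.02 to 0.22; adjusted p = 0.0773). The labels give replicate numbers and no pairing, but same-numbered libraries of 6 days deviated together. With the number as a block within that time, a fit chosen after seeing the data, Mdm2 passed, at 0.12 (adjusted p = 0.0323). It also passed without DMSO replicate 3 of 6 days, at 0.15 (0.0381), and with upper-quartile scaling, at 0.14 (0.0401).

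Mdm4, the partner that masks the activation domain of p53, had 104, 125 and 114 CPM with WM-1119 at 3 days and 111, 100.3 and 110.1 CPM with DMSO. The libraries of 6 days held 109, 86.7 and 97.3 CPM with WM-1119 and 108, 99.1 and 88.6 CPM with DMSO. Its groups overlapped at both times, with WM-1119 replicates 2 and 3 above every DMSO library at 3 days, and its intervals were the widest of the inhibitors, -0.10 to 0.28 at 3 days and -0.21 to 0.17 at 6 days. Ppm1d, the WIP1 phosphatase that switches off damage signalling to p53, had 43.7, 41.3 and 45.6 CPM with WM-1119 at 3 days, against 46.3, 47.5 and 49.4 CPM with DMSO. Levels at 6 days were 45.3, 47.8 and 49.1 CPM with WM-1119 and 49.7 CPM in each DMSO library. The WM-1119 libraries lay below the DMSO libraries at both times, by a margin that was not called (-0.13, adjusted p = 0.092, and -0.07, adjusted p = 0.377).

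The called members were all targets and moved in both directions, mostly down at 3 days. Of the 25 members tested, 6 fell and 1 rose with WM-1119 at 3 days (28% called), and 6 fell and 4 rose at 6 days (40% called). Of the 21 tested targets alone, these calls are 33.3% and 47.6%, against 24.4% and 30.8% of all genes. The members were chosen with earlier results of these data known, so these shares are not read as a result about p53 targets. Among the 25 members the share of falls was 24% at both times, against 12.6% and 15.1% of all genes. The share of rises was 4% and 16%, against 11.8% and 15.7%. All 7 members called at 3 days were called in the same direction at 6 days. The share of all genes called at 3 days that did the same was not computed. The 7 are therefore not read as a result about the members. The median log2 fold change of the 25 was -0.04 at 3 days and 0.02 at 6 days. In 3 members all WM-1119 libraries lay above the DMSO libraries at 3 days and in 8 below, and at 6 days in 5 and 7; of all genes 19.5% lay above and 20.4% below at 3 days, and 21.4% and 19.9% at 6 days.

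**Figure D2:**
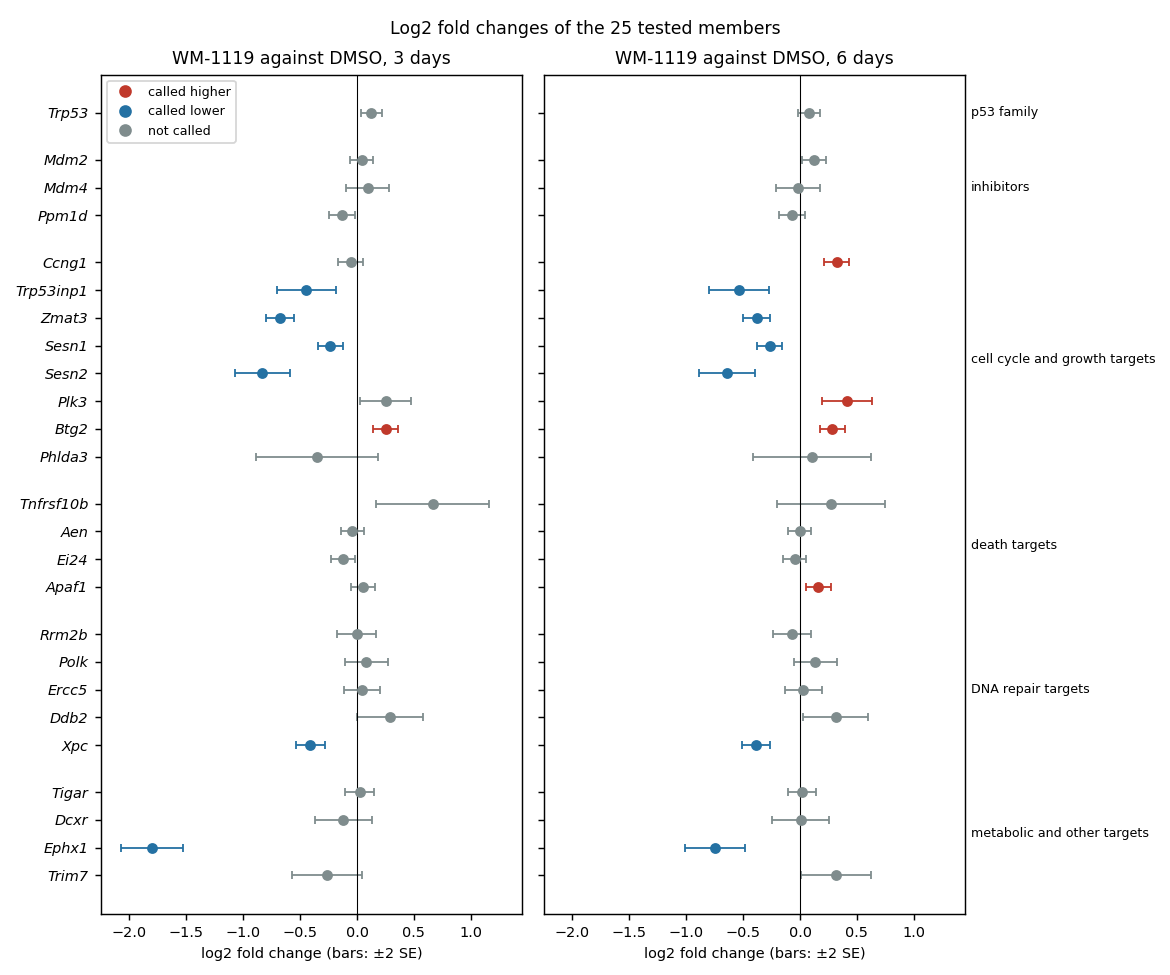
Log2 fold changes of WM-1119 against DMSO at 3 days (left) and 6 days (right) for the 25 tested members, grouped by role, with bars of 2 SE to each side. Trp53 and its inhibitors lie within 0.14 of 0, while 6 targets were called lower at both times and Ephx1 lies farthest out, at -1.80 and -0.75.

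The largest change of any member was that of Ephx1, the microsomal epoxide hydrolase, an enzyme of detoxification (chromosome 1, 180989556 to 181017569). At 3 days it had 2.49, 2.83 and 2.68 CPM with WM-1119, against 9.06, 9.27 and 9.82 CPM with DMSO. This was a 3.49-fold fall (log2 fold change -1.80 ± 0.14, SE, n = 3 each; edgeR adjusted p = 1.85e-09). At 6 days it had 4.85, 4.47 and 3.74 CPM with WM-1119, against 6.86, 8.29 and 6.99 CPM with DMSO, a 1.68-fold fall (-0.75 ± 0.13; adjusted p = 0.000136). The fall was smaller at 6 days, with the WM-1119 libraries higher and the DMSO libraries lower than at 3 days; the difference between the effects was 1.06 ± 0.19 on the log2 scale (adjusted p = 0.00648, called in 0.725% of all genes). That difference was 0.84 after thinning to equal depth (adjusted p = 0.119) and 0.95 without the 5 libraries with over 1 CPM of Col1a1 (0.651). In the pair of 6 days with few fibroblast transcripts, replicate 3, Ephx1 stood at 3.74 CPM with WM-1119 and 6.99 CPM with DMSO.

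Zmat3, whose zinc finger product binds RNA and regulates splicing in the p53 response (chromosome 3, 32334792 to 32365665), had 29.9, 34.1 and 30.0 CPM with WM-1119 at 3 days, against 52.7, 48.4 and 49.7 CPM with DMSO. By 6 days Zmat3 had 40.9, 39.6 and 40.5 CPM with WM-1119, against 51.9, 51.5 and 54.2 CPM with DMSO. The groups were far apart at both times, and Zmat3 fell 1.60-fold and 1.30-fold (-0.68 ± 0.06 on the log2 scale, adjusted p = 3.48e-08, and -0.38 ± 0.06, adjusted p = 4.39e-05). The change in the effect between the times, 0.29 ± 0.09, did not pass its own test (adjusted p = 0.193).

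Both sestrin genes on the list fell. Sestrins are stress proteins that dampen mTORC1 signalling when amino acids are short. Sesn2 (chromosome 4, 132492804 to 132510456) had 5.52, 4.36 and 5.51 CPM with WM-1119 at 3 days, against 8.59, 9.22 and 9.31 CPM with DMSO. The values at 6 days were 5.33, 6.28 and 5.31 CPM with WM-1119, against 8.47, 8.60 and 9.47 CPM with DMSO. These falls were 1.78-fold and 1.56-fold (adjusted p = 2.3e-05 and 0.000309). Sesn1 (chromosome 10, 41810574 to 41908436), the more abundant of the pair per length at 21.7 RPKM against 2.70 RPKM, had 66.2, 67.1 and 64.4 CPM with WM-1119 at 3 days, against 77.6, 75.7 and 79.5 CPM with DMSO. At 6 days Sesn1 had 68.5, 62.0 and 68.2 CPM with WM-1119, against 79.6, 75.4 and 84.1 CPM with DMSO. Its falls were smaller, 1.18-fold and 1.20-fold (adjusted p = 0.00273 and 0.000638), and again without overlap between the groups.

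Trp53inp1, whose product promotes p53-dependent death and autophagy (chromosome 4, 11156441 to 11174379), had 73.6, 63.7 and 58.0 CPM with WM-1119 at 3 days, against 90.8, 79.6 and 95.5 CPM with DMSO. The libraries of 6 days had 75.4, 62.1 and 66.5 CPM with WM-1119, against 115, 85.6 and 94.7 CPM with DMSO. Its libraries spread more widely than those of Zmat3, Sesn1 or Xpc, and it fell by 0.45 ± 0.13 on the log2 scale at 3 days (adjusted p = 0.0328) and by 0.54 ± 0.13 at 6 days (0.011). The call at 3 days was lost with no filter on low counts (0.0656). Among the libraries of 3 days, leaving out DMSO replicate 1 gave 0.0917 and DMSO replicate 3 gave 0.102, while leaving out WM-1119 replicate 2 gave 0.107 and WM-1119 replicate 3 gave 0.1, with log2 fold changes of -0.43 to -0.37. The call at 6 days was lost without the 5 libraries with fibroblast transcripts, at -0.51 (adjusted p = 0.0784).

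**Figure D3:**
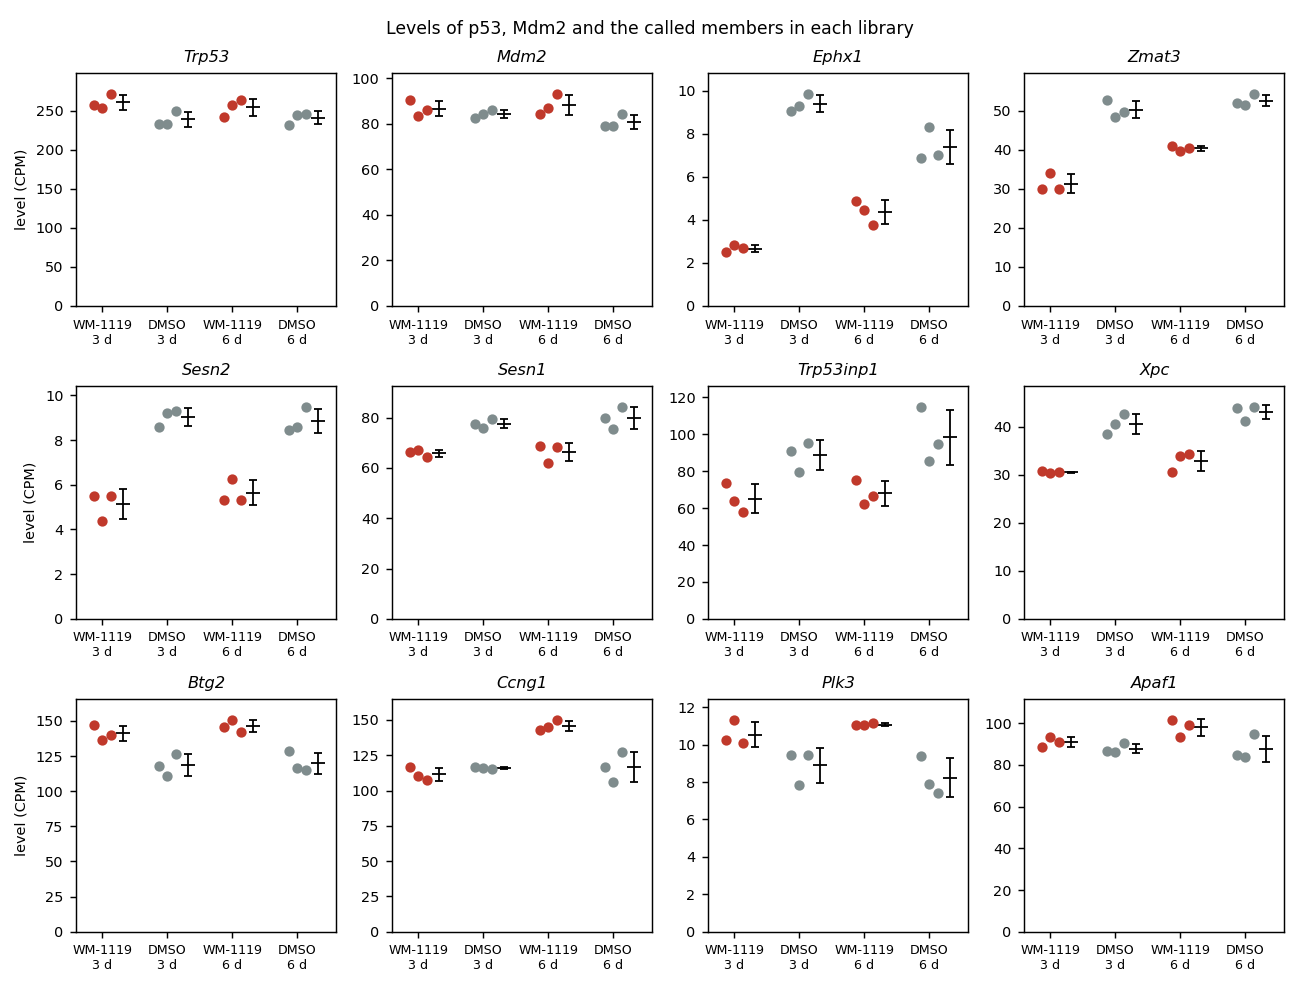
Level in CPM of Trp53, Mdm2 and the 10 called members in each of the 12 libraries, 3 points a group (red WM-1119, grey DMSO), with the mean and SD beside them. Ephx1, Zmat3, Sesn2, Sesn1, Trp53inp1 and Xpc were lower in every WM-1119 library than in any DMSO library of the same time, and Ccng1 was higher with WM-1119 at 6 days.

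Among the 5 repair genes, Xpc alone was called. That is 20% at both times, against 24.4% and 30.8% of all genes, so the count is no result about the repair genes. Its product recognises damaged bases in nucleotide excision repair (chromosome 6, 91489305 to 91515888). Xpc had 30.7, 30.4 and 30.4 CPM with WM-1119 at 3 days, against 38.4, 40.6 and 42.6 CPM with DMSO. At 6 days Xpc had 30.5, 33.8 and 34.4 CPM with WM-1119, against 43.8, 41.2 and 44.0 CPM with DMSO. It fell 1.33-fold and 1.31-fold, close to the same size at both times (adjusted p = 4.08e-05 and 5.08e-05). Ddb2, which acts with XPC at ultraviolet lesions, had averages of 5.89 ± 0.639 CPM with WM-1119 and 4.88 ± 0.870 CPM with DMSO at 3 days (SD, n = 3 each). At 6 days they were 5.95 ± 0.182 and 4.75 ± 0.419 CPM, in the opposite direction to Xpc but not called (edgeR adjusted p = 0.155 and 0.103). In the annotation 23.8% of the exon bases of Ddb2 overlap the opposite-strand gene Acp2, and the strand setting of the counting is not stated in the sources. The translesion polymerase gene Polk, the excision nuclease gene Ercc5 and the ribonucleotide reductase gene Rrm2b had log2 fold changes between -0.07 and 0.13 over both times, with adjusted p of at least 0.312.

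Btg2, which encodes an antiproliferative adaptor of messenger RNA deadenylation (chromosome 1, 134074865 to 134079155), was the member that rose at both times. It had 147, 136 and 140.0 CPM with WM-1119 at 3 days, against 118, 111 and 127 CPM with DMSO. At 6 days Btg2 had 146, 151 and 142 CPM with WM-1119, against 129, 116 and 115 CPM with DMSO. The groups did not overlap, and the rises were 1.19-fold and 1.22-fold (adjusted p = 0.00149 and 0.00034).

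The other 3 rises were called at 6 days. Ccng1 encodes cyclin G1, a p53 target that brings a phosphatase to MDM2 (chromosome 11, 40748552 to 40755309). At 3 days it had 116, 110.4 and 108 CPM with WM-1119 and 117, 116 and 115 CPM with DMSO, overlapping groups (log2 fold change -0.06 ± 0.06; adjusted p = 0.497). At 6 days it had 143, 145 and 149.9 CPM with WM-1119, against 117, 106 and 127 CPM with DMSO. This was a 1.25-fold rise (0.32 ± 0.05; adjusted p = 8.57e-05), and the effect differed between the times by 0.38 ± 0.08 (adjusted p = 0.0181). The difference was no longer called without DMSO replicate 1 of 3 days (0.0546), WM-1119 replicate 3 of 3 days (0.0755) or WM-1119 replicate 3 of 6 days (0.0659), where it stayed at 0.36 to 0.37. Nor was it called with thinned libraries, at 0.32 (0.0656), or, at 0.29, without the 5 libraries with fibroblast transcripts (0.791). Without those 5 the rise at 6 days was 0.24 (adjusted p = 0.0822), with replicate 3 left at 149.9 CPM with WM-1119 and 127 CPM with DMSO.

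Plk3, a stress-responsive kinase gene (chromosome 4, 117128655 to 117133963), had 10.2, 11.3 and 10.1 CPM with WM-1119 at 3 days and 9.43, 7.82 and 9.42 CPM with DMSO. At 6 days Plk3 had 11.0, 11.0 and 11.2 CPM with WM-1119, against 9.40, 7.89 and 7.39 CPM with DMSO. All WM-1119 libraries lay above all DMSO libraries at both times, with log2 fold changes of 0.25 ± 0.11 (adjusted p = 0.108) and 0.41 ± 0.11 (0.00666). The call at 6 days was lost without the 5 libraries with fibroblast transcripts, although the value there was larger, 0.59 (adjusted p = 0.0569). In the annotation 3.32% of its exon bases overlap the opposite-strand gene Tctex1d4. The difference between the effects at the 2 times was 0.16 ± 0.16 and was not called (adjusted p = 0.868).

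Apaf1, the scaffold of the apoptosome (chromosome 10, 90989311 to 91082743), was called at 6 days by the narrowest margin. It had 102, 93.5 and 99.0 CPM with WM-1119 and 84.6, 83.6 and 94.8 CPM with DMSO, and the groups overlapped. The log2 fold change was 0.16 ± 0.05 (adjusted p = 0.0253), and the call rested on single libraries of 6 days: leaving out DMSO replicate 1 gave 0.11, DMSO replicate 2 gave 0.109, WM-1119 replicate 1 gave 0.15 and WM-1119 replicate 3 gave 0.0797, with log2 fold changes of 0.12 to 0.15. It was also lost with thinned libraries, at 0.16 (0.0589), and without the 5 libraries with fibroblast transcripts, where the value was 0.06 (adjusted p = 0.728).

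The remaining death genes of the p53 programme were not called or were barely present. Tnfrsf10b, the mouse receptor of the death ligand TRAIL, had 1.68, 2.90 and 1.99 CPM with WM-1119 at 3 days and 1.35, 1.74 and 1.14 CPM with DMSO. The groups overlapped by 1 library, and the log2 fold change of 0.66 ± 0.25 missed the threshold (adjusted p = 0.0573). It passed with no filter on low counts (0.0479) and without DMSO replicate 2 (0.044) or WM-1119 replicate 1 (0.0275) of 3 days. Aen, an apoptosis-enhancing nuclease gene, and Ei24, an endoplasmic reticulum protein gene of autophagy, were among the more abundant members at 30.7 and 30.2 RPKM. Their log2 fold changes lay between -0.12 and -0.004 over both times, with adjusted p of at least 0.0855. The death receptor genes Fas and Eda2r and the desmosomal gene Perp had 8, 4 and 1 counts over the 12 libraries.

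Among the untested cell cycle and growth targets, Plk2 had 30 counts and the stress cytokine gene Gdf15 17 counts in all. Ddit4l, an inhibitor of mTOR signalling, had 2, 2 and 1 counts with WM-1119 at 6 days, against 15, 4 and 12 counts with DMSO, from libraries of different depth (means of 0.1 and 0.344 CPM). These libraries did not overlap in CPM, but at 3 days Ddit4l had 12 counts in each group, and it was too scarce to be tested. Phlda3, an inhibitor of AKT, averaged 1.07 ± 0.259 CPM with WM-1119 and 1.38 ± 0.314 CPM with DMSO at 3 days, and 1.38 ± 0.128 and 1.27 ± 0.190 CPM at 6 days. Its wide intervals, -0.89 to 0.18 and -0.42 to 0.62 on the log2 scale, leave changes of either direction within reach.

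Of the metabolic members, Tigar, whose product lowers fructose-2,6-bisphosphate, had log2 fold changes of 0.02 and 0.02, and the carbonyl reductase gene Dcxr of -0.12 and 0.01, with adjusted p of at least 0.535. Trim7, a ubiquitin ligase gene, stood second in level per length at 69.6 RPKM. It had 91.6, 85.1 and 78.8 CPM with WM-1119 at 3 days and 79.5, 122 and 106 CPM with DMSO, and at 6 days 104, 119.9 and 96.1 CPM with WM-1119 and 81.4, 80.8 and 95.3 CPM with DMSO. The DMSO libraries of 3 days spread widely, and neither time was called (adjusted p = 0.268 and 0.161). Without DMSO replicate 1 of 3 days the value at 3 days was -0.42 (adjusted p = 0.0153) and that at 6 days 0.32 (0.0254), and with only the groups of 6 days fitted it was also 0.32 (0.0359).

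In DMSO at 6 days against 3 days, 0 of the 25 members were called by edgeR, by DESeq2 or by limma voom, and 0.809% of all genes by edgeR, a share at which 0 of 25 is no result about the members. Their log2 fold changes ran from -0.35 for Ephx1 to 0.45 for Tnfrsf10b (adjusted p = 0.163 and 0.466). Ephx1 alone had an unadjusted p below 0.05, 1 of 25.

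Genes upstream of p53 were compared through a list of 35 damage kinases, cofactors, ubiquitin ligases and deubiquitinases, all tested. The list was chosen with earlier results of these data known, so its shares called are not read as a result about p53 regulators. With WM-1119, 4 rose and 8 fell at 3 days (34.3% called), and 5 rose and 7 fell at 6 days (34.3%), against 24.4% and 30.8% of all genes, with median log2 fold changes of -0.02 and -0.02. The smallest p belonged to Cdkn2a, the locus of INK4A and ARF, whose products the counts per gene do not tell apart. It had 25.5, 24.7 and 23.8 CPM with WM-1119 at 3 days, against 13.7, 11.5 and 12.3 CPM with DMSO, and at 6 days 31.1, 37.7 and 36.2 CPM with WM-1119, against 11.0, 11.7 and 10.2 CPM with DMSO. These rises were 1.97-fold and 3.19-fold (edgeR adjusted p = 3.43e-08 and 3.3e-12), and the libraries did not overlap. Ppp1r13b, which encodes the p53 cofactor ASPP1, rose 2.30-fold and 2.51-fold, to 13.2 ± 1.35 CPM with WM-1119 at 3 days against 5.78 ± 0.324 CPM with DMSO (SD, n = 3 each; adjusted p = 6.08e-08 and 4.94e-09). Trim24, a ubiquitin ligase of p53, fell by 0.39 and 0.47 on the log2 scale. Bcl6, a repressor of Trp53 in germinal centre B cells, fell 2.26-fold to 1.68 ± 0.046 CPM with WM-1119 at 3 days, against 3.79 ± 1.46 CPM with DMSO (adjusted p = 0.000453). At 6 days Bcl6 fell 1.80-fold (adjusted p = 0.00546), a call lost without the 5 libraries with fibroblast transcripts, at -0.83 (0.252). The ribosomal protein gene Rpl5, whose product binds MDM2 in ribosomal stress and which has pseudogenes, fell by 0.37 and 0.41. Without DMSO replicate 1 of 6 days, 7 of the 35 genes were called at 6 days, against 25.3% of all genes in that setting.

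A second list held 58 further p53 targets, of which 50 were tested. It too was chosen with earlier results of these data known, so its shares called are not read as a result about p53 targets. With WM-1119, 11 rose and 6 fell at 3 days (34%), and 16 rose and 11 fell at 6 days (54%), against 24.4% and 30.8% of all genes, with median log2 fold changes of -0.02 and 0.05. Without the 5 libraries with fibroblast transcripts 15 were called at 6 days, against 12.4% of all genes. Pmaip1, the death gene NOXA, fell 2.63-fold and 3.00-fold, to 8.43 ± 1.32 CPM with WM-1119 at 3 days against 22.2 ± 1.90 CPM with DMSO (adjusted p = 3.32e-09 and 2.83e-10). Sulf2, a heparan sulfatase gene, fell 2.51-fold and 4.02-fold, and the phosphatase gene Ptp4a3 rose 1.42-fold and 1.41-fold. Gpx1, a glutathione peroxidase gene, rose 1.21-fold and 1.40-fold. Cdkn1a, which encodes the cell cycle inhibitor p21, had 2.97, 4.05 and 4.51 CPM with WM-1119 at 3 days and 4.55, 4.25 and 3.75 CPM with DMSO, overlapping groups. At 6 days it had 7.85, 8.60 and 6.60 CPM with WM-1119, against 3.27, 3.37 and 3.09 CPM with DMSO, a 2.38-fold rise (adjusted p = 1.46e-06). The death genes Bbc3 and Bax had log2 fold changes of 0.37 (adjusted p = 0.000574) and 0.14 (0.0663) at 6 days. The Bbc3 rise was 0.24 and not called without the 5 libraries with fibroblast transcripts (0.288), and Bax was called with the number as a block within 6 days (0.0311).

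**Figure D4:**
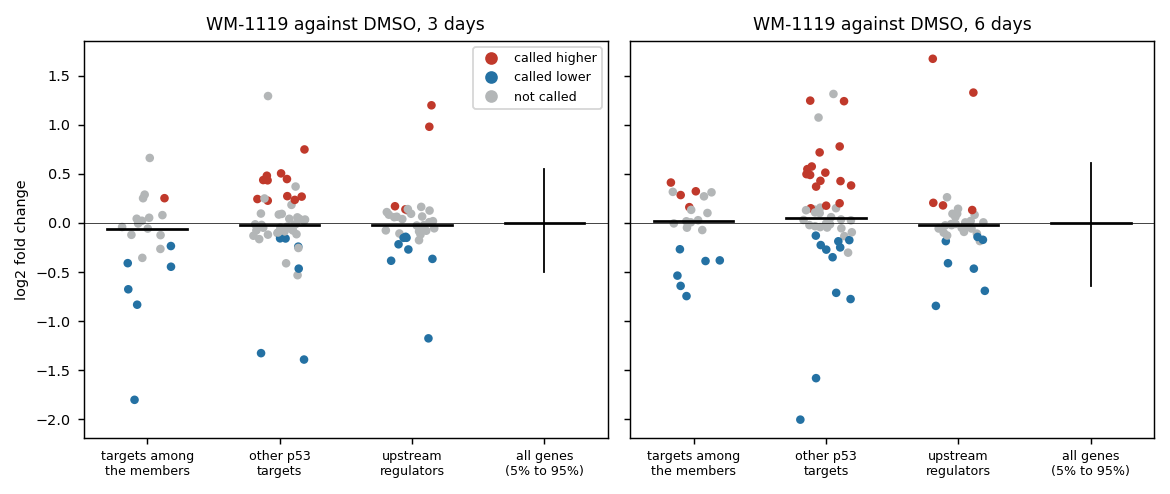
Log2 fold changes of WM-1119 against DMSO at 3 days (left) and 6 days (right) for the 21 tested targets among the members, 50 other p53 targets and 35 upstream regulators, with black lines at the medians; the vertical line spans the 5th to 95th percentile of all 11997 genes. Points above and below 0 occur in every list, and the medians lie between -0.06 and 0.05.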

How the data were processed

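The authors deposited raw read counts per gene for the 12 libraries, together with a gene length as another column; the submitters' processing notes name featureCounts and mm10. Libraries were poly(A)-selected with a stranded kit, per the labels. The sources used here do not name the aligner, the strand setting or the treatment of multiply mapped reads. Of 27179 entries, 874 without an identifier (0.305% to 0.362% of counts) were left out, and 25275 of 26305 identifiers were named from RefSeq for GRCm38. Counts were filtered with filterByExpr by group and TMM-scaled. All libraries entered 1 quasi-likelihood fit of 4 group means (edgeR 4.0.16, R 4.3.3; common biological coefficient of variation 5.69%), and two-sided p-values were Benjamini-Hochberg adjusted across the 11997 tested genes, threshold 0.05. An exact permutation of 3 against 3 cannot give less than 0.1. Coordinates are those of RefSeq. Library totals of 14736267 to 41749357 limit precision for scarce members.

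The test was tried on simulated counts. Same-numbered libraries deviated together at 6 days (correlations across genes 0.19, 0.14 and 0.24) and not at 3 days (-0.02, 0.04 and 0.006). Members and lists were chosen with earlier results of these data known. Every member is accounted for, and called members, Trp53, Mdm2, Mdm4 and Ppm1d are given per library; of the other lists up to 4 genes with the smallest p per time are named, with Cdkn2a, Cdkn1a, Bax, Bbc3 and Pmaip1. Alternatives were RLE and upper-quartile scaling, other filters, DESeq2 1.42.0, limma 3.58.1 voom, the compared groups alone, a replicate block, each library left out, the 5 libraries over 1 CPM of Col1a1 left out, and thinning. The block within 6 days was chosen after seeing the data.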

Additional observations from a re-analysis of the deposited data

Results flagged for a closer look

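The effect of WM-1119 differed between 6 and 3 days in the test of that difference for 2 members. Ephx1 fell by 1.80 on the log2 scale at 3 days and by 0.75 at 6 days, a difference of 1.06 (edgeR adjusted p = 0.00648). Ccng1 had log2 fold changes of -0.06 at 3 days and 0.32 at 6 days, a difference of 0.38 (adjusted p = 0.0181). Beside the members, Cdkn2a had 0.98 and 1.67, a difference of 0.69 (adjusted p = 0.00642), and Cdkn1a -0.12 and 1.25, a difference of 1.37 (adjusted p = 0.003). After thinning to equal depth Cdkn1a kept its call, and those of Ephx1, Ccng1 and Cdkn2a (0.56, adjusted p = 0.0957) were lost. Without the 5 libraries over 1 CPM of Col1a1 the differences were 0.95 for Ephx1, 0.29 for Ccng1, 0.84 for Cdkn2a (adjusted p = 0.115) and 1.26 for Cdkn1a (0.451), and none of these 4 was called.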

How the results depend on the processing

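Over every library left out in turn, 18.0% to 26.9% of all genes were called at 3 days and 24.0% to 31.3% at 6 days. These are the shares to set beside the counts of members and lists below. The count of members called was 6 to 8 at 3 days and 9 to 11 at 6 days over the same settings, against 7 and 10 with all libraries. It was within 1.5 times the reported count under every other alternative, except that without the 5 libraries over 1 CPM of Col1a1, which leaves 1 library a group at 6 days whose spread is assumed to be that of the other groups, 6 members (24%) were called at 6 days, against 12.4% of all genes in that setting. The count for the difference between the times was 1 to 2 over the libraries left out, and 0 with thinned libraries and 0 without those 5. For DMSO at 6 against 3 days it was 0 throughout. Upstream regulators called were 8 to 13 at 3 days and 7 to 12 at 6 days over the libraries left out, and 4 at 6 days without the 5; other targets called were 12 to 19 and 21 to 27, and 15 at 6 days without the 5. No called member reversed its direction in the comparisons with DMSO of the same time under any alternative run. With the replicate number as a block in all 12 libraries, 8 and 10 members were called, beside 26.3% and 32.5% of all genes. Trp53 was added at 3 days (0.13, edgeR adjusted p = 0.0215). With that block within 6 days alone, 11 members were called, adding Mdm2, beside 37.1% of all genes. Of the other named genes only Bax changed. The causes were not tested. Counts over all 12 libraries were lowest, among tested members, for Phlda3 and Tnfrsf10b, which had the widest intervals.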
